A study of Mus musculus with 9 samples.

Results

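Expression of 10 heat shock and chaperone genes, of 37980 genes in the table of counts, was followed in myeloid progenitors (MPs) that carried the Nup98-Hoxa10hd fusion (NA) and in wild-type (WT) MPs, as a check on stress from cell handling. The genes were chosen by name: Hspa1a, Hspa1b and Hspa8 of the HSP70 family, Hsp90aa1 and Hsp90ab1 of the HSP90 family, the J-domain co-chaperones Dnajb1 and Dnaja1, the HSP110 gene Hsph1, and Hspd1 and Hspe1 of the mitochondrial chaperonin. All 10 were found in the table by their Ensembl identifiers.

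Each sample was RNA from 100000 Lin-ckit+Sca1- bone marrow cells of irradiated mice that had received sorted multipotent progenitors (MPPs), 3 months earlier by the labels and somewhat longer by the study's methods. The 4 NA MP samples were Tdtomato+ cells from recipients of NA MPPs, in which Vav-Cre, active in blood cells, removes a stop cassette so that Rosa26 expresses the fusion (NA LSL/+; Vav-Cre). Control mice that had been given WT MPPs provided the 5 WT MP samples, which were gated on CD45.2. Both groups were of the C57BL/6 strain, and helper bone marrow cells had been injected with the MPPs in both. The methods describe the recipients as CD45.2+ too, and the sorts of the groups used different markers. In its transplant figures, however, the study traced WT donor cells by the other form of CD45, which a gate on CD45.2 would leave out. Cells of the host, of the helper marrow and of the transplanted WT MPPs therefore cannot be told apart in the control group. Whether that group holds progeny of the WT MPPs at all is uncertain. Whether each sample was 1 mouse is not stated, so p-values measure only the spread between these samples.

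Chaperones hold unfolded proteins and let them refold. HSP70 proteins bind short exposed stretches in cycles driven by ATP, J-domain proteins deliver the client and start the cycle, and HSP110 proteins release the nucleotide to end it, after which some clients pass to HSP90. When cells are heated, poisoned or otherwise stressed, heat shock factor 1 binds arrays of short repeats in the promoters of these genes, and inducible genes such as Hspa1a, Hspa1b and Dnajb1 respond far more than constitutive ones such as Hspa8 and Hsp90ab1.

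The chaperones did not move together, and the inducible ones went both ways, as Hsp90aa1, the inducible HSP90, was lower. Members whose promoters held a pair or a longer run of such repeats also went both ways. Hspa1a and Hspa1b were higher, while Dnaja1, Hsph1, Hspe1 and Hspd1 were lower, Hsph1 by the most. No pair was found for Dnajb1, and the remaining members had no promoter entry. The inducible HSP70 genes Hspa1a and Hspa1b and the co-chaperone Dnajb1 were higher in NA MPs, Hsp90ab1 did not pass the test, and Hspa8, Hsp90aa1, Dnaja1, Hsph1, Hspe1 and Hspd1 were lower, with changes between -6.97% and -33.1%. Values are normalized counts, that is, estimated read counts already divided by a size factor for each sample, and 1 read was worth 0.827 to 1.2 of these units. A gene was called when its limma p-value, adjusted by Benjamini-Hochberg over 11987 tested genes, was under 0.05. By this rule 8 of the 9 tested members were called (2 higher, 6 lower). Of all tested genes 34.3% were called, 16.9% higher and 17.3% lower. That share includes genes of low counts and was not matched to the level of the members. Apart from Hspa1b, the tested members had standard errors of 0.017 to 0.055 on the log2 scale, so small changes could be called. The samples of the groups did not overlap for 9 of the 10 members, and for 8 of the 9 tested, against 26.3% of tested genes. Among the 8 members that reached 10 normalized counts in every sample, 1 rose and 6 fell. In bulk RNA, fewer cells of a type and less RNA per cell cannot be told apart.

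**Figure D1:**
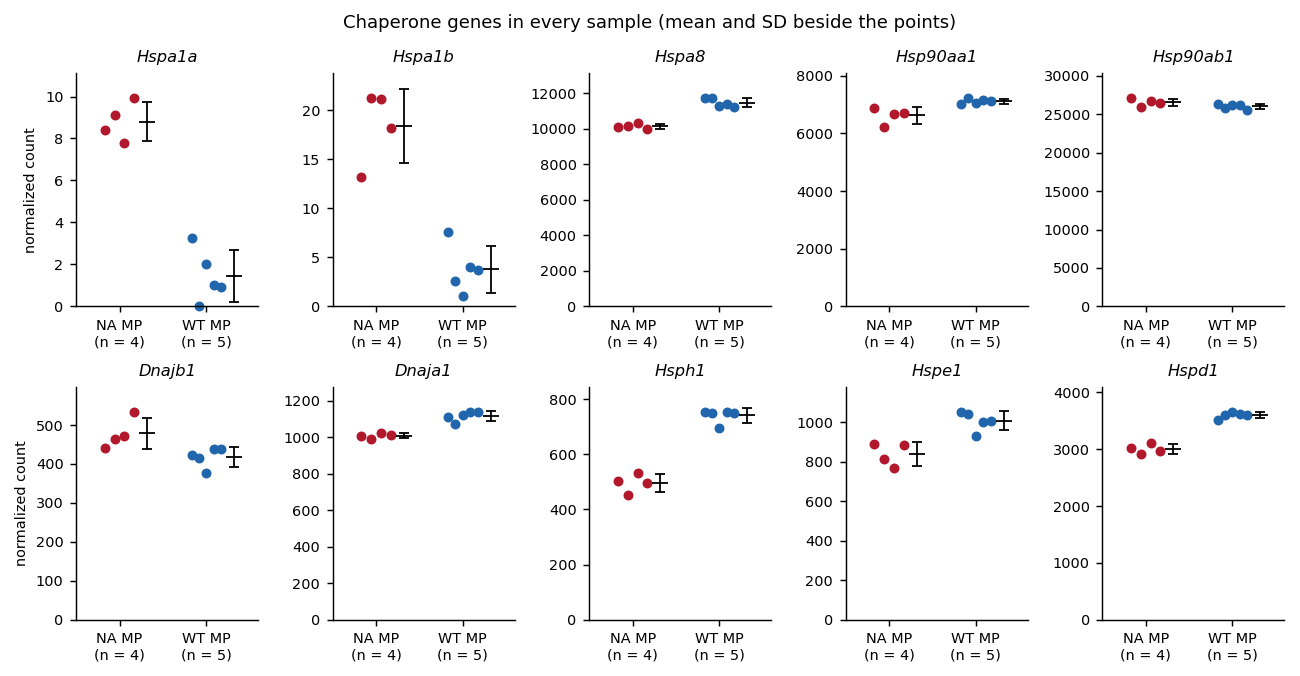
Normalized count of each of the 10 chaperone genes (y axis, linear and starting at 0) in the 4 NA MP (red) and 5 WT MP (blue) samples. Each point is a sample, and the black mark beside the points gives the mean with its SD. The groups overlap for Hsp90ab1 and are apart for the other 9 genes.

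Hspa1a, an intronless gene on chromosome 17 (mm10, chr17:34969190-34972156, minus strand) for the stress-inducible cytosolic HSP70, was close to the limit of detection in both groups. NA MP replicates 1 to 4 had 8.40, 9.10, 7.79 and 9.92 normalized counts, and WT MP replicates 1 to 5 had 3.24, 0, 2.04, 1.0 and 0.932. Every NA MP sample lay above every WT MP sample, and each WT MP value came from 3 reads or fewer. The gene did not reach the minimum of 10 in 4 samples and so had no limma test. An exact two-sided permutation test over all ways to divide the samples gave p = 0.0159, the smallest p it allows, and gave the same p for every other member but Hsp90ab1. In all, about 35 reads in NA MPs stood against 7 in WT MPs, a rate ratio of 6.48 with an exact 95% interval of 2.84 to 17.3, which covers counting error only.

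Hspa1b lies beside it (chr17:34956436-34959238, minus strand), is also a single exon, and encodes an almost identical HSP70. Its normalized counts were 13.2, 21.2, 21.2 and 18.2 in NA MPs and 7.55, 2.57, 1.02, 4.0 and 3.73 in WT MPs. Again the groups did not overlap, with NA MP replicate 1 the lowest of its group and WT MP replicate 1 the highest of its own. On the log2(value + 1) scale the difference was 2.16 (SE 0.36, 95% interval 1.43 to 2.89, limma adjusted p = 5.98e-06). With 5 added in place of 1 the difference was 1.44. The gene passed the filter on low values only through NA MPs, so a difference was built into its being tested. The recovered reads, 73 against 19, gave a rate ratio of 4.98 (exact 95% interval 2.98 to 8.74, counting error only).

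The transcripts of Hspa1a and Hspa1b were 93.6% identical over their alignment, and 52.7% of all 75-base windows of Hspa1a occurred in Hspa1b unchanged, so how reads were divided between them is uncertain. Their sum does not depend on that division. It was 21.6, 30.3, 28.9 and 28.1 in NA MPs and 10.8, 2.57, 3.06, 5.0 and 4.66 in WT MPs, again without overlap. Hspa1a also overlaps the gene Gm20481 on the opposite strand over 564 bases, where reads without strand cannot be assigned. Even in NA MPs the pair together made 2.14 to 2.99 counts per 1000 of the constitutive Hspa8, against 0.219 to 0.921 in WT MPs.

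The promoters of both genes are shown because these neighbours moved the same way. In RefSeq's GRCm38.p6 promoters (the build that mm10 names), the 250 bases before the start of Hspa1a and of Hspa1b differed at 3 positions. Distances here and below are from RefSeq's start. For Hsph1, Dnaja1, Hspd1 and Hspe1 it lies inside the gene span given, since that span reaches the outermost annotated transcript. Each held 1 pair of heat shock element units facing each other (GAANNTTC or TTCNNGAA, each of which reads the same on both strands), in capitals below on the gene's strand, at chr17:34972233-34972280 and chr17:34959315-34959362. Such a pair occurred in 14.5% of the 27025 promoters searched.
Hspa1a: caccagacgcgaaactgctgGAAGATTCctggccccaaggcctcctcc
Hspa1b: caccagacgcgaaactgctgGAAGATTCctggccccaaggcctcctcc

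Hspa8 (chr9:40800984-40810087, plus strand) encodes HSC70, the HSP70 that unstressed cells use for folding and for uncoating clathrin vesicles. NA MPs had 10105, 10146, 10337 and 9969 normalized counts, and WT MPs had 11717, 11713, 11296, 11402 and 11244. All NA MP samples were below all WT MP samples, and each group kept within a narrow range. Hspa8 fell by 11.6%, a log2 change of -0.18 (SE 0.02, limma adjusted p = 2.96e-09). Its introns host the small nucleolar RNAs Snord14c, Snord14d and Snord14e, and 7 annotated pseudogenes share at least 20% of their 31-base words with it. None of those pseudogenes had an entry in the table of counts, so their reads could not be examined.

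Hsph1 (chr5:149614287-149636376, minus strand) encodes HSP105, an HSP110 protein that acts as nucleotide exchange factor for HSP70. Its normalized counts were 503, 453, 531 and 497 in NA MPs against 755, 751, 694, 755 and 749 in WT MPs. The highest NA MP sample stayed well under the lowest WT MP sample, replicate 3, which itself stood apart from the other 4. Hsph1 fell by 33.1%, the largest decrease among the members (log2 change -0.58, SE 0.05, limma adjusted p = 7.46e-14). Its promoter held 1 pair of facing units, 26 to 33 bases before the RefSeq start (chr5:149636342-149636389, minus strand).
Hsph1: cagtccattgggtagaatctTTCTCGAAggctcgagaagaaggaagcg

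The J-domain co-chaperones went opposite ways. Dnajb1 (chr8:83608193-83612653, plus strand), the heat-inducible HSP40 that works with HSP70 in solubilising aggregates, had 442, 465, 472 and 535 normalized counts in NA MPs and 423, 414, 378, 437 and 438 in WT MPs. The groups were apart by a narrow margin, between NA MP replicate 1 and WT MP replicate 5, and NA MP replicate 4 was the highest of all. Dnajb1 rose by 0.19 on the log2 scale (SE 0.06, limma adjusted p = 0.00531), or by 14.3%. Without NA MP replicate 4 the log2 difference was 0.14 and the call was lost (limma adjusted p = 0.0619). None of the pairs searched for was found in the 250 bases before its start.

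Dnaja1 (chr4:40722150-40737149, plus strand), a constitutive HSP40 with a farnesyl anchor, had 1008, 993, 1027 and 1013 normalized counts in NA MPs and 1113, 1072, 1122, 1142 and 1141 in WT MPs. No NA MP sample reached the lowest WT MP sample. It fell by 9.62%, a log2 change of -0.15 (SE 0.04, limma adjusted p = 0.0011). After a correction for GC content and length the log2 difference was -0.08 and no longer passed (limma adjusted p = 0.0793). The gene overlaps Smu1 on the opposite strand over 608 bases, and 3 pseudogenes that resemble it held at most 17.7 normalized counts in a sample. The pair of units in its promoter lies at chr4:40722324-40722371 on the plus strand, before the RefSeq start.
Dnaja1: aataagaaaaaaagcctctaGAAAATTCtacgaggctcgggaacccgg

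HSP90 proteins complete the folding of kinases and steroid receptors and exist in the cytosol as an inducible alpha and a constitutive beta form. Hsp90aa1, the alpha form (chr12:110690605-110702728, minus strand), had 6886, 6213, 6677 and 6707 normalized counts in NA MPs and 7008, 7219, 7069, 7145 and 7117 in WT MPs. The separation from the WT MP samples was small, and NA MP replicate 2 was the lowest. Hsp90aa1 fell by 6.97%, a log2 change of -0.10 (SE 0.02, limma adjusted p = 0.000872), and after the GC and length correction the log2 change was -0.07 (limma adjusted p = 0.0103). Of its pseudogenes, 2 were in the table, with at most 68.4 normalized counts in a sample.

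Hsp90ab1, the beta form (chr17:45567775-45573271, minus strand), was the most abundant member. It had 27089, 25971, 26708 and 26436 normalized counts in NA MPs and 26316, 25751, 26264, 26194 and 25597 in WT MPs, with the groups overlapping. The log2 difference was 0.03 with a 95% interval of -0.01 to 0.06 (limma adjusted p = 0.208, exact permutation p = 0.111), an interval that does not reach the change of Hspa8. The alpha and beta counts together were 32184 to 33975 in NA MPs and 32715 to 33339 in WT MPs, so the summed cytosolic HSP90 overlapped between groups.

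Hspd1 and Hspe1 encode HSP60 and its lid HSP10, which form the folding chamber of the mitochondrial matrix and are transcribed from 1 shared promoter in opposite directions. Hspd1 (chr1:55077835-55088243, minus strand) had 3028, 2913, 3103 and 2977 normalized counts in NA MPs and 3506, 3610, 3664, 3617 and 3609 in WT MPs. For Hspe1 (chr1:55088132-55091307, plus strand), NA MPs had 891, 812, 767 and 882, and WT MPs had 1053, 1042, 930, 1001 and 1004. Neither gene had overlapping groups. Hspd1 fell by 16.6% (log2 change -0.26, SE 0.03, limma adjusted p = 1.23e-10). Hspe1 fell by 16.8% (log2 change -0.26, SE 0.04, limma adjusted p = 4.08e-06). The genes overlap by 112 bases on opposite strands, which reads without strand cannot separate, and the Hspd1 pseudogene Hspd1-ps3 held at most 55.6 normalized counts.

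The ratio of Hspd1 to Hspe1 was 3.38 to 4.05 in NA MPs and 3.33 to 3.94 in WT MPs. It therefore overlapped between groups while both genes were lower. The sequence before the RefSeq starts of both genes is shown because they share it. It holds a run of 4 units over 18 bases (chr1:55088054-55088081), given on the strand of each gene with the run in capitals. Runs of at least 3 units (GAANNTTCNNGAA or TTCNNGAANNTTC, both strands, each containing the pairs above) occurred in 0.514% of promoters.
Hspe1: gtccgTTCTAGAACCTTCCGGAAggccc
Hspd1: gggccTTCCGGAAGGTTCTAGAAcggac

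**Figure D2:**
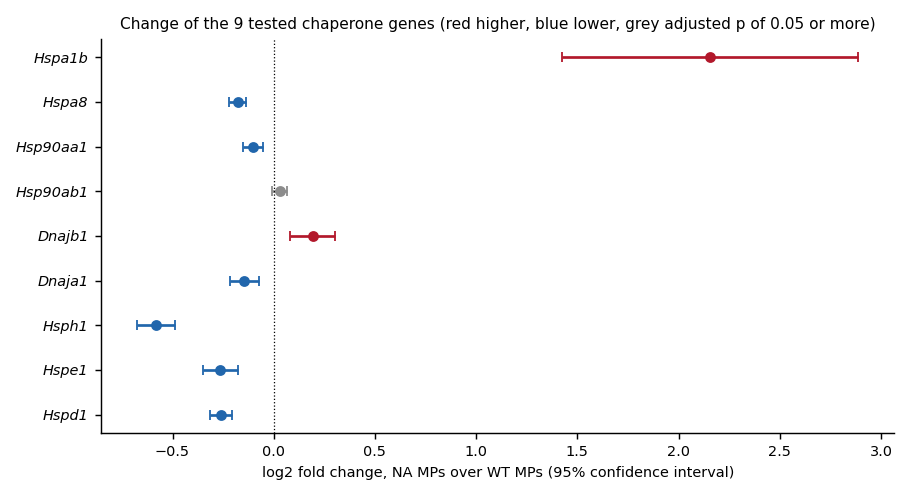
Log2 fold change of NA MPs over WT MPs (x axis) for the 9 tested chaperone genes (y axis), with 95% confidence intervals from limma. Red marks genes called higher, blue genes called lower, and grey Hsp90ab1, which was not called. Hspa1b lies at 2.16 with a wide interval, and the 6 lower genes lie between -0.10 and -0.58.

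Ratios within a sample are free of the scaling between samples, and were picked after the values had been seen, so they carry no test. Hspa8 relative to Hsp90ab1 was 0.373 to 0.391 in NA MPs and 0.430 to 0.455 in WT MPs. Hsph1 relative to Hspa8 was 0.0446 to 0.0514 in NA MPs and 0.0614 to 0.0666 in WT MPs, so the exchange factor was lower also against its HSP70 partner. Dnajb1 relative to Dnaja1 was 0.438 to 0.528 in NA MPs and 0.337 to 0.386 in WT MPs.

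Dnaja1 relative to Hspa8 overlapped between the groups, with 0.0979 to 0.102 in NA MPs and 0.0915 to 0.102 in WT MPs. The ratio of Hsp90aa1 to Hsp90ab1 was 0.239 to 0.254 in NA MPs and 0.266 to 0.280 in WT MPs. Across all 10 genes, chaperones took 0.719% to 0.749% of all counts in NA MPs and 0.771% to 0.783% in WT MPs.

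**Figure D3:**
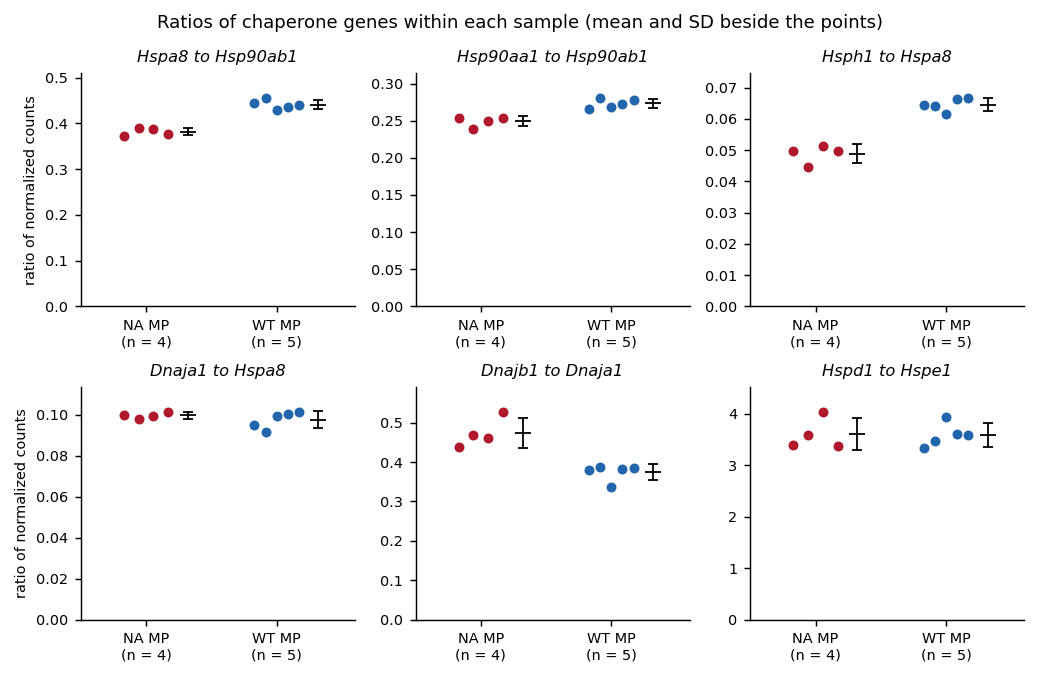
Ratio of the normalized counts of 2 chaperone genes within each sample (y axis, linear and starting at 0) for 6 pairs, with NA MPs in red, WT MPs in blue, and the mean and SD in black. The groups overlap for Dnaja1 to Hspa8 and for Hspd1 to Hspe1 and are apart for the other 4 pairs.

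Per kilobase of annotated exon, the mean levels in WT MPs fell in the order Hsp90ab1 (8678 normalized counts per kb), Hspa8 (2668), Hsp90aa1 (1809), Hspd1 (1363), Hspe1 (682), Dnajb1 (130), Dnaja1 (130), Hsph1 (102), Hspa1b (1.35) and Hspa1a (0.486). The order was the same in NA MPs. In WT MPs 2 neighbouring pairs overlapped across samples: Dnajb1 with Dnaja1, and Hspa1b with Hspa1a. In NA MPs Dnajb1 (138 to 167 per kb) stood above Dnaja1 (115 to 119 per kb) in every sample. Length here is all exons of all annotated transcripts merged, so a gene with long alternative ends, such as Dnaja1, gets a low level.

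Among the other chaperone genes, small decreases were more frequent than increases. The lists of chaperone families held 107 tested genes besides the members. Of these, 32 were lower (29.9%, against 17.3% of all tested genes) and 8 higher (7.48%, against 16.9%), with a median log2 fold change of -0.07 against -0.01 over all tested genes. With the GC and length correction 28 were lower and 6 higher, with a median of -0.05. Called shares were 57.1% of HSP90 co-chaperones, 53.3% of the cytosolic chaperonin list, 40% of the mitochondrial list and 37.5% of the other HSP70 genes. They were 33.3% in the endoplasmic reticulum, 25% of J-domain genes and 20% of exchange factors, no higher than the 34.3% of all tested genes.

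In the other HSP70 and HSP110 genes, 3 of 8 tested were lower and none was higher. These were Hspa4l (-0.24 on the log2 scale) and Hspa4 (-0.14), which like Hsph1 are HSP110 genes, and Hspa9 (-0.16), the mitochondrial HSP70 that hands proteins to HSP60. Hspa5, the HSP70 of the endoplasmic reticulum and a marker of the unfolded protein response, had 6736 to 7302 normalized counts in NA MPs and 6927 to 7174 in WT MPs, a log2 difference of -0.01 (95% interval -0.06 to 0.04, limma adjusted p = 0.755).

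Of 32 other J-domain genes, 2 were higher and 6 lower. Dnajb4, a heat-inducible relative of Dnajb1, rose by 0.41 on the log2 scale (SE 0.10, limma adjusted p = 0.000649), and Dnajc10, a reductase of the endoplasmic reticulum, rose by 0.36. Dnaja4 had 3.60, 5.06, 0 and 3.31 normalized counts in NA MPs and 15.1, 14.5, 17.3, 7.0 and 22.4 in WT MPs, a difference of -2.22 in log2(value + 1) that rests on few reads. It passed the filter only through WT MPs, and with a pseudocount of 5 the difference was -1.34. Dnaja3, the J-domain partner of Hspa9, fell by 0.23.

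Of 10 nucleotide exchange factors 1 was higher and 1 lower. Bag2, an inhibitor of the ubiquitin ligase CHIP that tags HSP70 clients, fell by 0.49 on the log2 scale (SE 0.08), while Bag6, which sorts misplaced membrane proteins, rose by 0.09. That call was lost under 6 of 22 alternatives, without NA MP replicate 2 or WT MP replicate 1 (log2 change 0.08 in each) and with the GC and length correction (-0.00049, limma adjusted p = 0.993) among them. Bag3, a typical target of heat shock factor 1 that carries HSP70 clients to autophagy, had 110 to 128 normalized counts in NA MPs and 101 to 111 in WT MPs and did not pass (log2 difference 0.15, limma adjusted p = 0.226).

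HSP90 paralogues and co-chaperones had 10 of 21 lower and 2 higher. The decreases included Cdc37l1 (-0.29), Chordc1 (-0.19) and the cyclophilin Ppid (-0.18), and Unc45a, a co-chaperone for myosin, was among the increases (0.21). With the GC and length correction the calls of Chordc1 (-0.11, limma adjusted p = 0.0646) and Unc45a (0.13, limma adjusted p = 0.0835) were lost. Hsp90b1, the HSP90 of the endoplasmic reticulum, had 6421 to 6888 normalized counts in NA MPs against 6982 to 7222 in WT MPs and fell by 0.07 on the log2 scale (limma adjusted p = 0.0157). Its call was lost under 5 of 22 alternatives (limma adjusted p up to 0.311), among them without NA MP replicate 4 (log2 change -0.05) and without WT MP replicate 3 (-0.06). In the cytosolic chaperonin and prefoldin list, 7 of 15 were lower, Cct6a (-0.16) and Cct8 (-0.12) among them, and Pfdn5 was higher (0.18).

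Mitochondrial chaperones and proteases other than Hspd1 and Hspe1 had 6 of 15 lower and none higher, with Dnaja3, the inner membrane protease Yme1l1 (-0.18) and Clpx (-0.17), which unfolds proteins for the matrix protease ClpP, among the decreases. The GC and length correction moved Yme1l1 to -0.11. The call of Clpx was lost under 5 of 22 alternatives (limma adjusted p up to 0.105), among them without NA MP replicate 4 or WT MP replicate 4 (log2 change -0.15 in each). Of 15 chaperones of the endoplasmic reticulum 4 were lower, Dnajc3 (-0.17), an inhibitor of the stress kinase PERK, by the most, and 1, the disulfide isomerase gene P4hb, was higher (0.09).

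Small heat shock proteins were scarce, with 2 of 9 tested. Hspb3, Hspb7 and Cryaa were at 0 in all samples, and Hspb1, a strong heat-inducible gene in many cell types, had 1 read in 1 WT MP sample and none elsewhere. Cryab had 24.0, 21.2, 11.1 and 18.2 normalized counts in NA MPs and 6.47, 1.71, 2.04, 5.0 and 0.932 in WT MPs. It rose by 2.35 on the log2(value + 1) scale (SE 0.38, limma adjusted p = 3.78e-06), or by 1.54 with a pseudocount of 5, but, like Hspa1b, passed the filter only through NA MPs.

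The RNA of the regulator itself showed no change that passed, and the activity of its protein was not measured. Hsf1, the factor that activates heat shock genes, had 416 to 425 normalized counts in NA MPs and 412 to 468 in WT MPs (log2 difference -0.06, 95% interval -0.16 to 0.04, limma adjusted p = 0.362). Hsf2 had 72.8 to 101 and 78.8 to 115 (log2 difference -0.10, limma adjusted p = 0.527). Of 16 tested genes on a list of other heat-inducible genes, 5 were higher and 9 lower, with a median of -0.12. Of all tested genes, 16.9% were higher and 17.3% lower. Several of the 16 are also in the family lists above. The largest falls were in Dnaja4 (-2.22, on few reads), Hspa4l (-0.24), Cacybp (-0.20) and Chordc1 (-0.19). Cryab and Dnajb4, given above, were among the 5 that were higher. Hmox1, which degrades heme and responds to oxidative stress, rose by 2.03 (291, 147, 157 and 150 normalized counts in NA MPs against 34.5 to 47.1 in WT MPs), with NA MP replicate 1 the highest. Ubb, a polyubiquitin gene, rose by 0.30, a call lost under 6 of 22 alternatives (limma adjusted p up to 0.0696), among them without NA MP replicate 2 (log2 change 0.29), 3 (0.27) or 4 (0.29) or WT MP replicate 1 (0.27).

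Immediate early genes, which switch on within minutes of a stimulus and are known to respond to tissue dissociation, differed far more than the chaperones. Of 20 tested, 16 were higher, against 16.9% of all tested genes, 1 (Myc, -0.11) was lower, and the median log2 fold change was 1.84. Fosb (4.21), Klf2 (3.24), Dusp1 (2.91) and Fos (2.90) had the largest increases among the tested genes. Atf3, named here after its values were seen, was not tested and had 4.80, 16.2, 98 and 76.9 normalized counts in NA MPs against 0 to 2.0 in WT MPs.

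The summed level of the immediate early list was 22880, 16678, 31160 and 33145 normalized counts in NA MPs and 5972, 6722, 7528, 9252 and 7872 in WT MPs. These sums did not overlap. Seen after the fact, the 2 samples with the highest sums in each group, replicates 3 and 4 of NA MPs and 4 and 5 of WT MPs, were also the 2 with the most Dnajb1. Hspa1b was highest in NA MP replicates 2 and 3 and in WT MP replicate 1, but at 1 to 22 reads a sample its order within a group cannot be read. Whether handling had a part in either was not tested.

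**Figure D4:**
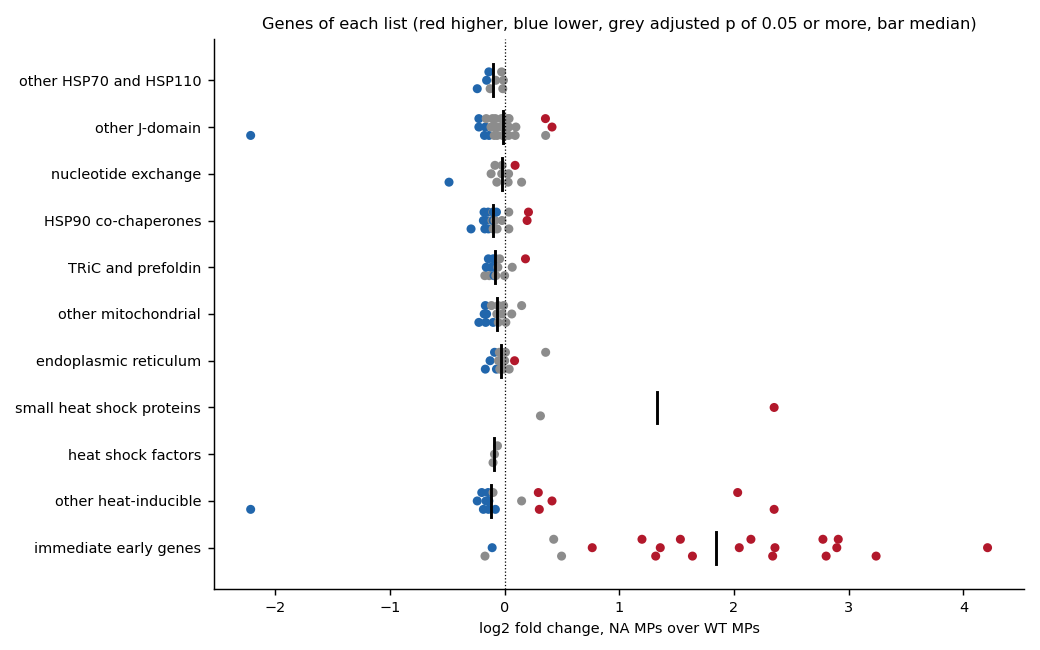
Log2 fold change of NA MPs over WT MPs (x axis) for every tested gene of 10 lists of chaperone and heat-inducible genes and of the immediate early genes (y axis), the 10 members left out. Red points were called higher, blue lower, grey neither, and the black bar is the median of the list. The lists of chaperone families with at least 8 tested genes have medians between -0.10 and -0.02, the other heat-inducible genes -0.12 and the immediate early genes 1.84.

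The deposited values stood for 5557690 to 8106150 recovered reads a sample, with mitochondrial genes at 2.55% to 3.04% of counts. Hoxa10, a partner of the fusion, had 116 to 155 normalized counts in NA MPs and 5.59 to 12 in WT MPs, and Nup98 rose by 0.67 on the log2 scale, so the libraries matched their labels. Kit, which the sort required, was at 2811 to 3132 normalized counts in NA MPs and 2983 to 3100 in WT MPs. Ly6a (Sca1), which the sort excluded, was at 12.2 to 23.1 over all samples. Cd34 and Fcgr3 (CD16), which the study stained on MPs but which this sort did not use, were both called. The log2 change was 0.12 for Cd34 (limma adjusted p = 0.00261) and -0.57 for Fcgr3 (limma adjusted p = 4.12e-16).

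Markers of other cells moved with the groups in several lists but not in all. Of all tested genes, 16.9% were higher and 17.3% lower. All 12 tested of 13 B cell progenitor markers were higher in NA MPs, with summed levels of 1421 to 2507 normalized counts against 373 to 413. Some of them, such as Pax5 (1.86 to 4.28 normalized counts in WT MPs), passed the filter only through NA MPs. For those, a difference was built into their being tested. Of 11 markers of mature lymphocytes 4 were tested and all 4 were higher (sum 1995 to 2303 against 1419 to 1494). The T cell genes Cd3e and Cd3g were at 0 in all samples. In the erythroid list 11 of 13 tested genes were lower (sum 6213 to 7852 against 11541 to 12750), and in the proliferation list 9 of 18 (sum 31959 to 34117 against 35822 to 36807). Mast cell and basophil markers were higher for 6 of 7 (sum 5505 to 6267 against 4300 to 4438), neutrophil markers for 7 of 12 and monocyte markers for 5 of 10, of which 2 others, Ccr2 (-0.59) and Cx3cr1 (-0.23), were lower. The sums overlapped for neutrophil markers (160218 to 177581 against 156192 to 162380) and monocyte markers (9231 to 11165 against 9044 to 9481). In the megakaryocyte list 1 of 7 tested genes was higher and 2 were lower, and the sums overlapped (1453 to 1677 against 1453 to 1602). Of the mast cell genes, Cma1 (4.66 to 12.2 normalized counts in WT MPs) reached 10 in 4 samples only through NA MPs. The part of these markers in the differences of the chaperone genes was not tested.

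The genes with profiles most like those of the members were found by the root mean square (RMS) difference of centred log2 values over the 9 samples. For Hspa8 these were Msh6 (0.0225), Ptpn11 (0.0231), Rpia (0.0243), Umps (0.0249) and Crnkl1 (0.0253). For Hspa1b they were Lgmn (0.382), 1700048O20Rik (0.392), Emp1 (0.400), Ankrd33b (0.401) and Myo1e (0.403), and for Hspa1a 9630013D21Rik (0.354), H2afy2 (0.409), Lck (0.414), Cma1 (0.421) and a gene without a symbol (0.429). The RMS differences for Hspa1a and Hspa1b are large because single reads move such low values.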

How the data were processed

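RNA-seq of 4 NA MP and 5 WT MP samples was used. Per the labels and methods, the authors prepared poly(A) libraries with a TruSeq kit and processed reads with bcl2fastq, RSEM (mm10) and DESeq2, with versions not given in the sources used here. The deposited table, titled as raw counts, holds a signal per gene: RSEM estimates divided by size factors. Of its values above 0, 97.4% to 97.9% were whole multiples (within 0.05) of 1 step per sample, and that step times a recomputed median-ratio size factor was 0.999 to 1.002. Reads were recovered by dividing by the step. Count models were therefore not used. log2(value + 1) of genes with at least 10 in at least 4 samples was fitted with limma 3.58.1 in R 4.3.3 (trend and robust options), with Benjamini-Hochberg adjustment, and single genes were also compared by exact two-sided permutation. A count model had been planned, and limma took its place because of the unit. The fit was tried on simulated data with the same added spread for all genes. Genes as low as Hspa1a and Hspa1b were given no change there, and the outcome is not reported here.

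Symbols, positions and lengths came from GENCODE M21 (32916 of 37980 identifiers named), and promoters from RefSeq, which gave entries for 7 of the 10 members. Rows without a symbol held 0.667% to 0.680% of counts. Pairs of samples within a group differed by more than sampling noise (chi-square per degree of freedom 1.20 to 2.83). The members and the gene lists were chosen with earlier results of these data known. Genes named are the members, 7 regulators and relatives, Nup98 and Hoxa10, up to 4 genes with the largest rise and the largest fall past the threshold in each list, and the 5 profiles nearest to Hspa1a, Hspa1b and Hspa8.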

Additional observations from a re-analysis of the deposited data

Results flagged for a closer look

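Of 70 groups of sample values checked, 2 held a sample far from the others, where chance gives about 1 in 20 (3.5). WT MP replicate 3 had 693.8 normalized counts of Hsph1 against 749 to 755 in the other 4 samples, and was still above every NA MP sample. NA MP replicate 1 had a summed level of 6267 normalized counts of mast cell and basophil markers against 5505 to 5605 in the other 3.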

How the results depend on the processing

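The count of called members was 7 to 9 under 22 alternatives, the count of all called genes 2857 to 4173, and that of called list genes 98 to 128. Scalings moved the median of all genes by at most 0.01 on the log2 scale. TMM scaling, rounding and pseudocounts of 0.5 and 5 were chosen after seeing the data. Hspa1b was left out when 10 was required in every sample, and Hspa1a was tested, and called, without a filter (log2 difference 2.16), while Hspa1a and Hspa1b summed gave 2.31. The planned DESeq2 and edgeR fits were not run, because the deposited values are scaled and not all of them came back as whole reads. Recovered reads served only for the counting intervals of Hspa1a and Hspa1b. Leaving out each sample in turn gave 7 to 8 called members, the lower without NA MP replicate 4.

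Direction turned for 3 named genes, none of them called in either direction there. Hspa5 (-0.01 in the report) was at 0.023 with the GC and length correction, 0.027 with the block and that correction, and between -0.033 (without NA MP replicate 3) and 0.0062 (without NA MP replicate 2) when 1 sample was left out. Hsf2 was at 0.035 with the block and the correction. Bag6 was at -0.00049 with the correction. Same-numbered samples did not deviate together (correlations -0.02 to 0.06), so the numbers do not pair samples. With the replicate block 3693 genes and 8 members were called, and with the block and the correction 3539 and 7, Dnaja1 being lost.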
